A study of Mus musculus with 12 samples.

Results

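The genes described here carry peptides to the cell surface on major histocompatibility complex (MHC) class I molecules: B2m, H2-K1, H2-D1, Tap1, Tap2, Tapbp, Psmb8, Psmb9, Psmb10 and Nlrc5. They were taken by gene symbol from the array platform's annotation, and where a gene had several probe sets the brightest one over all arrays stood for it. Of these 10 genes, 8 had a probe set that names them alone, out of 19938 genes measured in the same way on the arrays. H2-K1 and H2-D1 appeared only on 2 probe sets that list both genes with a further class I locus, so they are reported as a shared signal and are not in the counts of measured genes.

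The arrays measured total RNA from injured mouse spinal cord. The groups were Il1a KO mice, which lack interleukin-1 alpha, Il1b KO mice, which lack interleukin-1 beta, and wild-type (WT) C57BL/6 mice, with 4 arrays in each. All 12 arrays came from mice aged 8 to 12 weeks on the C57BL/6 background, each of which had a contusion of 50 kdyn. The tissue was a cord segment of 6 mm around the lesion, taken 24 h after injury. The labels name each knockout by its gene, with no allele, promoter or cell type, and no uninjured cord is in the comparison, so the values say how genotypes differ after injury and not what the injury did.

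Class I molecules show fragments of a cell's own proteins to CD8 T cells. Proteasomes cut the proteins, and under interferon the subunits Psmb8, Psmb9 and Psmb10 take the place of the constitutive catalytic subunits to form the immunoproteasome. The transporter Tap1-Tap2 moves the peptides into the endoplasmic reticulum, where tapasin (Tapbp) holds the transporter next to an empty class I molecule. That molecule is a heavy chain, such as H2-K1 or H2-D1, paired with the light chain beta-2-microglobulin (B2m). Nlrc5 is a transcriptional activator of class I genes that acts through a conserved promoter module holding an X2 element and a Y box. In the central nervous system class I is low at rest and is raised by inflammation, in microglia, endothelium and infiltrating leukocytes above all.

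The promoter of B2m and that of 1 heavy chain gene are shown because they carry the module through which the light and heavy chains are known to be switched on together, while B2m was the only member called between genotypes below. The RefSeq sequences of GRCm38.p6 end 1 base before the annotated start of each gene. Capitals mark matches, on either strand, to the interferon regulatory factor core AANNGAAA, the kappaB consensus, the X2 core TGACG and the Y box ATTGG. B2m lies at chr2:122147507-122147686 on the plus strand and H2-D1 at chr17:35262914-35263093 on the plus strand.
B2m: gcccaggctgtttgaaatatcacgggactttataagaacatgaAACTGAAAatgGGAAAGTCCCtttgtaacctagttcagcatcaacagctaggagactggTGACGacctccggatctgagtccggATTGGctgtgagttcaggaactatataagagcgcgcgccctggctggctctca
H2-D1: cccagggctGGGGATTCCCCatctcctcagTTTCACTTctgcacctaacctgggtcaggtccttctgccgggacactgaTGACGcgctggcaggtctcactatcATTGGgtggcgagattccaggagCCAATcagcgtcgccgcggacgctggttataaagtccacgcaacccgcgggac

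In B2m the interferon regulatory factor core lay at -137 to -130 from the start, the kappaB match at -126 to -117, the X2 core at -78 to -74 and the Y box at -53 to -49. In H2-D1 the X2 core lay at -101 to -97 and the nearer Y box downstream of it at -76 to -72. Windows of 250 bases before the start were searched on both strands in the 8 members that had one (Tap2 and Nlrc5 had none). H2-K1 had 2 windows, of which 1 was used. It lies at 34000348 to 34000597, inside the annotated span of the gene (33996012 to 34000619). The interferon regulatory factor core was in 3 of them (B2m, H2-K1 and H2-D1), against 21.3% of 32851 windows of the same length. The kappaB consensus was in the same 3, against 7.25% of windows. X2 cores were in 5 members, these 3 with Tap1 and Psmb9, against 17.8% of windows, and Y boxes in these 5 and Tapbp, against 33.8% of windows. The interferon-activated element TTCNNNGAA was in 1 member, Psmb8, against 7.02% of windows. Tap1 and Psmb9 are divergent neighbours whose windows share 225 bases, so they do not count as separate matches. A Y box that began 25 bases after the start of an X2 core was found in B2m, H2-K1 and H2-D1 and in 30 of the 32851 windows (0.0913%), a spacing looked for after it had been seen in these genes. The 30 windows belonged to 26 genes, of which 4 were B2m or named as H2 loci, the fourth being H2-M3, a nonclassical class I gene. A match is a description of letters and shows no binding.

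Median log2 signal ran from 7.67 to 7.72 over the arrays. In Il1a KO replicate 1 the Y-linked gene Eif2s3y had a log2 signal of 9.15 and Xist one of 6.47, while on the other 11 arrays Eif2s3y read 3.65 to 3.94 and Xist 11.9 to 12.2. The first principal component held 33% of the variance and put WT replicate 1 at -20.2 and Il1b KO replicate 3 at 13.6, the ends of its range. The labels give no sex. Among the Il1a KO arrays, replicate 1 gave the lowest value in 7 of the 8 measured members and replicate 4 the highest in 6 of 8. The same count over all genes was not made, so it is not shown to be particular to the members.

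The deleted genes were read as a check of the labels. Il1b averaged 6.42 log2 units in the Il1b KO and 7.83 in WT, 2.67-fold lower (limma adjusted p = 2.64e-06), and 8.08 in the Il1a KO, which did not pass against WT (adjusted p = 0.465, limma). Il1a averaged 4.97 in the Il1a KO and 5.87 in WT, 1.87-fold lower (limma adjusted p = 0.00372). Il1a also averaged 5.10 in the Il1b KO, 1.71-fold lower than in WT (limma adjusted p = 0.0039), so the Il1b KO arrays were low in both cytokines. In the Il1a KO minus the Il1b KO, Il1a was at -0.13 (limma adjusted p = 0.849), so its signal does not tell the knockouts apart. That of Il1b does, at 1.66 (limma adjusted p = 5.98e-07).

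B2m was the member that differed between genotypes. Its log2 signal was lower in the Il1b KO than in WT and than in the Il1a KO, and the Il1a KO lay within the WT range in 3 of 4 arrays. B2m read 12.33, 12.45, 12.45 and 12.49 in the Il1a KO, 12.11, 11.86, 12.11 and 12.11 in the Il1b KO, and 12.25, 12.45, 12.47 and 12.48 in WT. Every Il1b KO array was below every array of the other genotypes. B2m averaged 12.43 ± 0.067 in the Il1a KO, 12.05 ± 0.126 in the Il1b KO and 12.42 ± 0.109 in WT (SD, n = 4 each).

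In the Il1b KO against WT, the log2 fold change of B2m was -0.37 (SE 0.0681, 95% interval -0.52 to -0.22), a level 1.29-fold lower, with 1.17 to 1.43 as the interval of the fold (limma adjusted p = 0.0208). In the Il1a KO against WT it was 0.01, with a 95% interval of -0.13 to 0.16 (limma adjusted p = 0.992). The difference between the knockouts, which is also the difference between both effects since they share the WT arrays, was 0.38 (95% interval 0.24 to 0.53), 1.31-fold higher in the Il1a KO (limma adjusted p = 0.0174). The fall in the Il1b KO passed the threshold by a narrow margin: without WT replicate 2, 3 or 4 the adjusted p was 0.056, 0.0555 and 0.0907 by limma at log2 fold changes of -0.36, -0.35 and -0.35. The difference between the knockouts lost the call in the same way without Il1a KO replicate 2, 3 or 4, at adjusted p = 0.0697, 0.0683 and 0.0811 by limma. WT replicate 1 and Il1b KO replicate 3 were the ends of the first principal component above. Without each, the log2 fold change in the Il1b KO against WT was -0.42 and -0.39. It stayed called (limma adjusted p = 0.00592 and 0.0414). Leaving out Il1b KO replicate 2, the array lowest in B2m, gave a smaller change of -0.31, which was also called. Il1a KO replicate 1, which differed in Eif2s3y and Xist, enters neither mean, so leaving it out cannot move the -0.37. Only the spread shared by all groups changed then (limma adjusted p = 0.0251). B2m had 1 single-symbol probe set, so its value could not be compared with another one. B2m is present in nearly every nucleated cell, and in bulk tissue fewer cells of a type and less RNA per cell cannot be told apart.

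**Figure D1:**
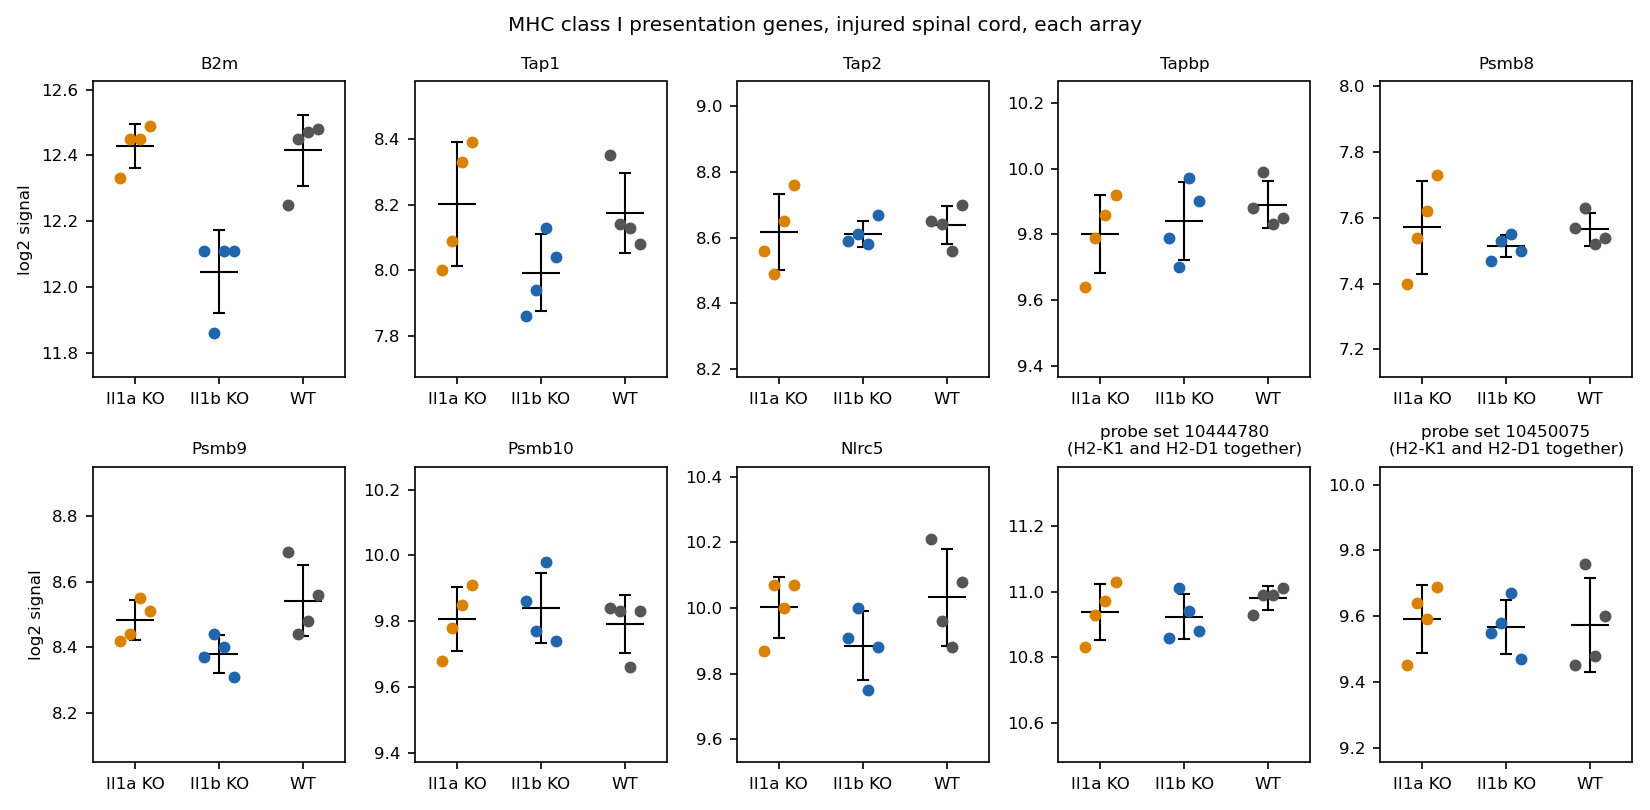
Log2 signal of the 8 measured class I presentation genes and of both probe sets shared by H2-K1 and H2-D1, one point per array, for the Il1a KO, the Il1b KO and WT, with the group mean as a bar and the SD as whiskers (n = 4 each). In the B2m panel all 4 Il1b KO arrays, from 11.86 to 12.11, lie below the lowest WT array at 12.25, while in every other panel the groups overlap.

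No change was called on the probe sets that carry the heavy chains. Probe set 10444780, which lists H2-K1 and H2-D1 together, read 10.83 to 11.03 in the Il1a KO, 10.86 to 11.01 in the Il1b KO and 10.93 to 11.01 in WT. Probe set 10450075, which lists the same genes, read 9.45 to 9.69 in the Il1a KO, 9.47 to 9.67 in the Il1b KO and 9.45 to 9.76 in WT. All groups overlapped on both. The log2 fold changes were -0.04 and 0.02 in the Il1a KO against WT (limma adjusted p = 0.970 and 0.998), and -0.06 and -0.005 in the Il1b KO against WT (limma adjusted p = 0.731 and 0.989). The 95% intervals for the Il1b KO were -0.17 to 0.05 and -0.17 to 0.16, neither of which reaches the -0.37 of B2m. These values come from the fit over all 35557 probe sets, in which 0.186% were called in the Il1a KO against WT, 0.543% in the Il1b KO against WT and 0.385% between the knockouts. A change in H2-K1 that was offset by H2-D1 would not show on probe sets that read both.

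Peptide transport and loading showed no called change. Tap1, the first chain of the transporter, read 8.00, 8.09, 8.33 and 8.39 in the Il1a KO, 7.86, 7.94, 8.13 and 8.04 in the Il1b KO, and 8.35, 8.14, 8.13 and 8.08 in WT. Its Il1b KO arrays lay towards the low side but 1 of them, at 8.13, reached into the WT range. The log2 fold change of Tap1 was -0.18 in the Il1b KO against WT (95% interval -0.38 to 0.02, limma adjusted p = 0.427) and 0.03 in the Il1a KO against WT (limma adjusted p = 0.987). Between the knockouts it was 0.21, with an interval of 0.01 to 0.41 and an unadjusted p of 0.0398 that did not survive adjustment over all genes (limma adjusted p = 0.617). Tap2, the second chain, differed least from WT in the Il1b KO among the members with a probe set of their own. Its log2 fold change was -0.03 there, with an interval of -0.14 to 0.09, and -0.02 in the Il1a KO. Tapbp, which encodes tapasin, had log2 fold changes of -0.09 (interval -0.24 to 0.06) in the Il1a KO and -0.05 (interval -0.20 to 0.10) in the Il1b KO against WT.

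None of the 3 immunoproteasome subunits was called in any comparison. Psmb9, the interferon-induced subunit encoded beside Tap1, read 8.42, 8.44, 8.55 and 8.51 in the Il1a KO, 8.37, 8.44, 8.40 and 8.31 in the Il1b KO, and 8.69, 8.44, 8.48 and 8.56 in WT. Only 1 Il1b KO array was as high as the lowest WT array. Its log2 fold change in the Il1b KO against WT was -0.16 (interval -0.28 to -0.04), with an unadjusted p of 0.012 that did not pass over all genes (limma adjusted p = 0.239). In the Il1a KO it was -0.06 (limma adjusted p = 0.885). Psmb8 and Psmb10 complete the set of induced catalytic subunits. Psmb8 ranged from 7.40 to 7.73 in the Il1a KO, 7.47 to 7.55 in the Il1b KO and 7.52 to 7.63 in WT, with log2 fold changes against WT of 0.00 in the Il1a KO and -0.05 in the Il1b KO. Psmb10 ranged from 9.68 to 9.91 in the Il1a KO, 9.74 to 9.98 in the Il1b KO and 9.66 to 9.84 in WT, and its log2 fold changes against WT were 0.01 in the Il1a KO and 0.05 in the Il1b KO. It was the member with a positive value in the Il1b KO.

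Nlrc5, the transcriptional activator, read 9.87, 10.07, 10 and 10.07 in the Il1a KO, 9.91, 10, 9.75 and 9.88 in the Il1b KO, and 10.21, 9.96, 9.88 and 10.08 in WT. Its highest array was WT replicate 1, the array at the low end of the first principal component. The log2 fold changes were -0.03 in the Il1a KO (limma adjusted p = 0.98) and -0.15 in the Il1b KO against WT (interval -0.31 to 0.02, limma adjusted p = 0.432). Nlrc5 was the only member with several single-symbol probe sets, 19 in all, and the one used was selected on its mean signal over all arrays, 9.97, with the next at 8.66. None of the 19 was called in any comparison, with smallest limma adjusted p-values of 0.587 in the Il1a KO against WT, 0.42 in the Il1b KO against WT and 0.838 between the knockouts. At an unadjusted p under 0.05 the counts were 2, 1 and 0 of 19, where 6.80%, 10.6% and 6.59% of all probe sets passed. Values were below 0 for 17 of the 19 in the Il1a KO and for 16 of the 19 in the Il1b KO, and probe sets of 1 gene on the same arrays are not separate measurements of the genotype.

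**Figure D2:**
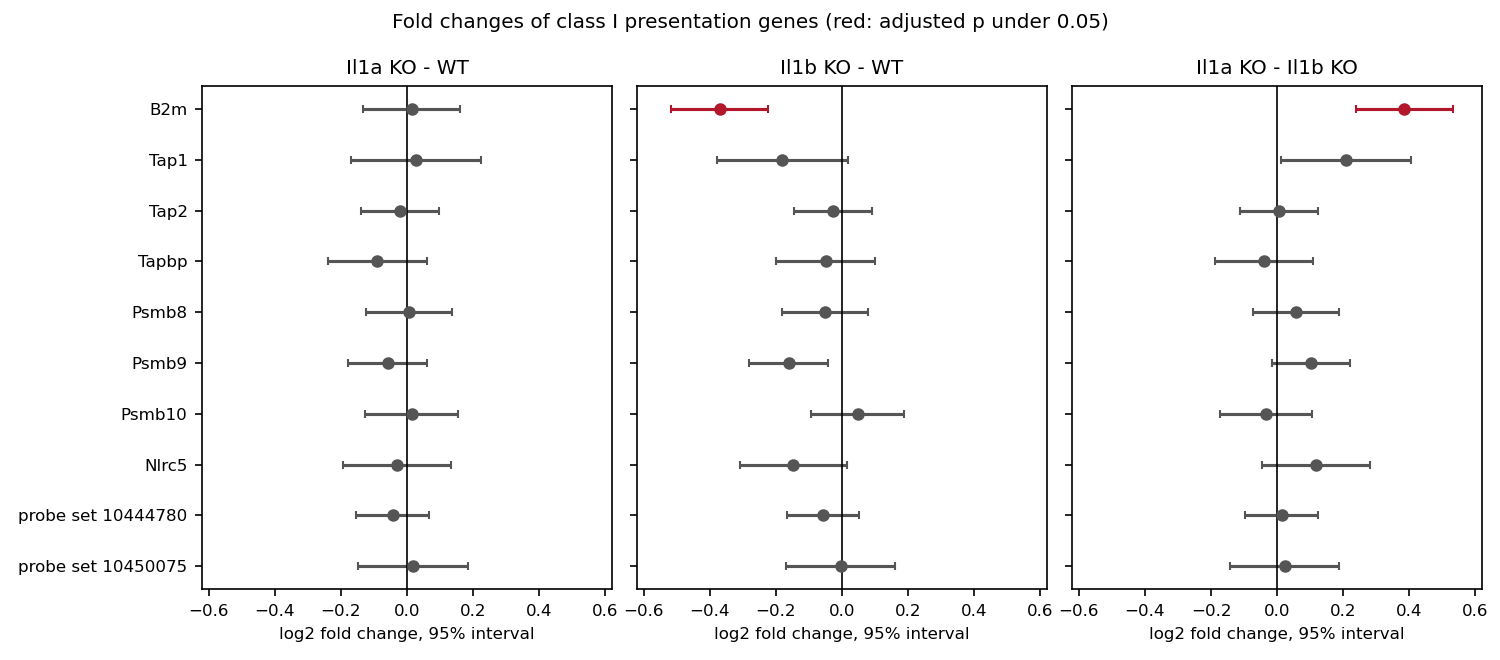
Log2 fold changes with 95% intervals for the 8 measured genes and both shared probe sets, in the Il1a KO minus WT, the Il1b KO minus WT and the Il1a KO minus the Il1b KO (4 arrays a group). Red marks an adjusted p under 0.05, which only B2m reached, at -0.37 in the Il1b KO and 0.38 between the knockouts.

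Counted over the 8 measured members, 0 were called in the Il1a KO against WT, beside 34 of all 19938 genes (0.171%). In the Il1b KO against WT 1 was called, beside 162 of all genes (0.813%), and 1 between the knockouts, beside 130 of all genes (0.652%). At an unadjusted p under 0.05 by limma the members numbered 0 in the Il1a KO against WT, 2 in the Il1b KO against WT (B2m and Psmb9) and 2 between the knockouts (B2m and Tap1). Of all genes, 8.32%, 13% and 7.79% passed that cut in these comparisons. Groups failed to overlap in 0, 1 and 1 members in these comparisons, each time B2m, while 5.06%, 7.00% and 7.24% of all genes had groups that did not overlap. The median log2 fold change of the members was -0.01 in the Il1a KO, with 4 of 8 below 0, and -0.10 in the Il1b KO, with 7 of 8 below 0. The medians of all genes were 0.00 in both. Between the knockouts the median of the members was 0.08, with 6 of 8 above 0. The Il1a KO and Il1b KO comparisons share the WT arrays.

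B2m shares its chromosome with both deleted genes. In GRCm38.p6 it lies on chromosome 2 at 122147687 to 122153082, 7.15 Mb from Il1a (129299609 to 129310186), and Il1b follows at 129364569 to 129371164. The other members lie elsewhere: Tap1, Tap2, Tapbp, Psmb8, Psmb9, H2-K1 and H2-D1 on chromosome 17, and Nlrc5 and Psmb10 on chromosome 8. Of the 75 genes measured between B2m and Il1a, 0 were called in the Il1a KO against WT, 6 in the Il1b KO against WT (8%, 2 higher and 4 lower) and 4 between the knockouts. Over all genes the share in the Il1b KO was the 0.813% given above.

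Each of those 6 genes is named here with its log2 fold change in the Il1b KO and its limma adjusted p. AA467197, which hosts a microRNA, fell by 1.47 (adjusted p = 7.85e-06, limma). Bloc1s6, a subunit of a complex for lysosome-related organelles, rose by 0.34 (adjusted p = 0.00293, limma), while Sqor, a mitochondrial sulfide oxidoreductase, fell by 0.36 (adjusted p = 0.0142, limma). They lie 0.49, 0.59 and 0.62 Mb from B2m. Nearer to Il1a, Slc27a2, a fatty acid transport protein, rose by 0.25 (adjusted p = 0.033, limma), Kcnip3, a calcium sensor, fell by 0.39 (adjusted p = 0.00774, limma) and Mall, a membrane raft protein, fell by 0.44 (adjusted p = 9.51e-04, limma).

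Of the 50 measured genes on each side of B2m, 11 of 100 were called in the Il1b KO against WT, 8 higher and 3 lower, and 0 in the Il1a KO. None of the nearest neighbours was called in any comparison. Golm2, Mageb3, Ctdspl2, Spg11 and Patl2 on one side and Trim69, Terb2, Duox2, Duoxa2 and Duoxa1 on the other had log2 fold changes of -0.14 to 0.08 in the Il1b KO against WT, and the smallest limma adjusted p was 0.411. Patl2, whose annotated span covers B2m, had -0.06. The part that position on the chromosome plays in the value of B2m was not tested.

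**Figure D3:**
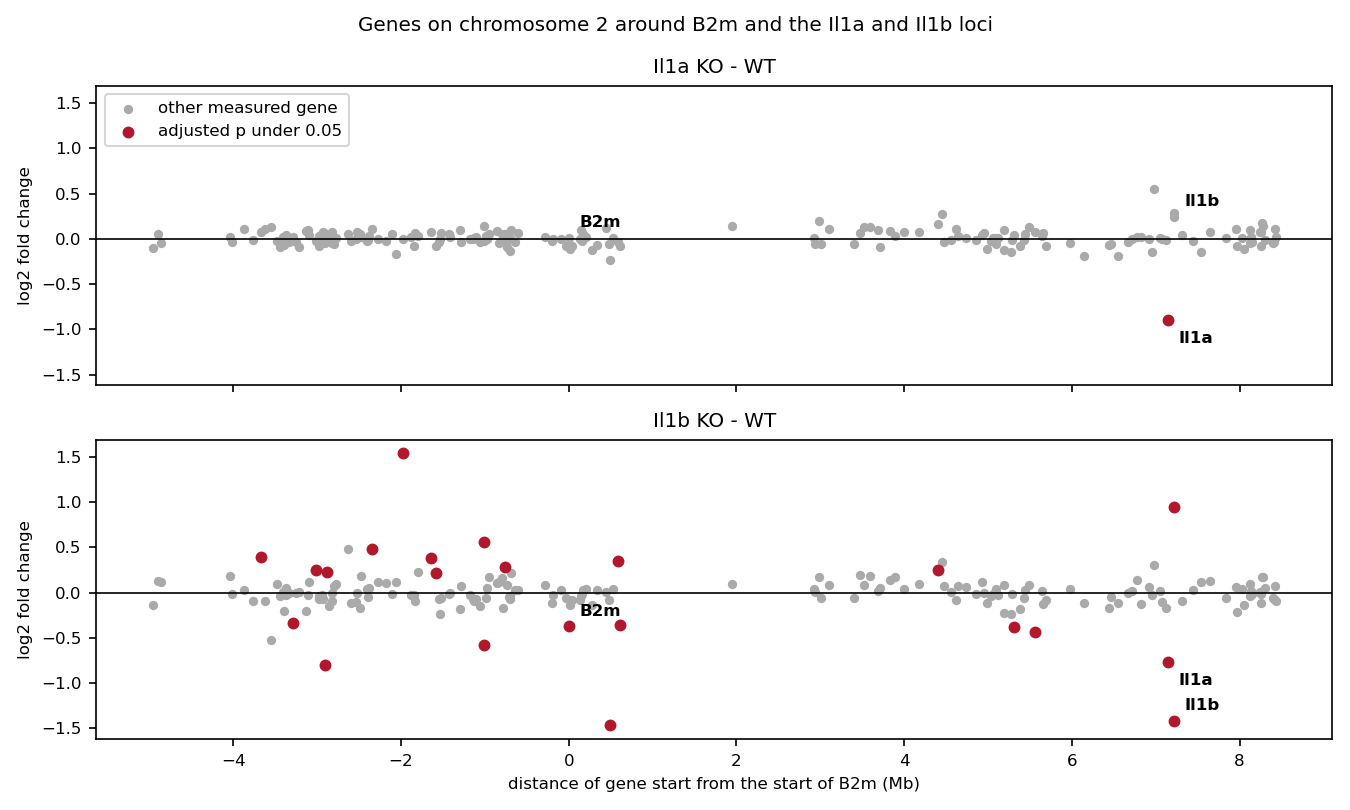
Log2 fold changes of genes measured on chromosome 2 against the distance of their start from the start of B2m in Mb, for the Il1a KO minus WT above and the Il1b KO minus WT below, with an adjusted p under 0.05 in red. Il1a is the red point in the upper panel, while the lower panel has red points on both sides of B2m, including 6 of the 75 genes between B2m and Il1a.

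Other genes of the pathway gave no call by limma in either knockout against WT. Heavy chains and class I-like molecules, 12 measured genes, had median log2 fold changes of -0.03 in the Il1a KO and -0.05 in the Il1b KO, with 0 and 0 at an unadjusted p under 0.05. H2-Q4, a nonclassical heavy chain, was at -0.15 in the Il1b KO (limma adjusted p = 0.417) and Mr1, which presents bacterial metabolites, at -0.09 (limma adjusted p = 0.525). Chaperones and trimming enzymes of peptide loading, 10 measured genes, had medians of -0.04 in the Il1a KO and -0.01 in the Il1b KO, again with 0 at an unadjusted p under 0.05. In the Il1b KO the chaperone Calr was at 0.09 (limma adjusted p = 0.424) and the aminopeptidase Erap1 at -0.09 (limma adjusted p = 0.583). The class I receptors of leukocytes, 10 measured genes, had medians of -0.05 in the Il1a KO and -0.04 in the Il1b KO, with 2 and 3 at an unadjusted p under 0.05, beside 8.32% and 13% of all genes. The 3 in the Il1b KO did not share a direction: the inhibitory receptors Pirb and Klrc1 were at -0.27 (limma adjusted p = 0.122) and -0.13 (limma adjusted p = 0.131), and Klra2, a lectin-like receptor, was at 0.36 (limma adjusted p = 0.319).

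The rest of the proteasome gave 1 call, between the knockouts. The 3 constitutive catalytic subunits Psmb5, Psmb6 and Psmb7, which the induced subunits replace, had log2 fold changes of 0.06, 0.01 and -0.04 in the Il1b KO against WT. The 7 activators and assembly factors had medians of 0.01 in the Il1a KO and 0.02 in the Il1b KO, with the assembly chaperone Pomp at 0.13 in the Il1b KO (limma adjusted p = 0.235). Among 11 other core subunits the medians were -0.01 in the Il1a KO and 0.01 in the Il1b KO. Psma5, a structural alpha subunit, averaged 9.21 in the Il1a KO and 9.47 in the Il1b KO, a log2 fold change of -0.25 (limma adjusted p = 0.0245). It was the single pathway gene outside the members that was called between the knockouts, and in the Il1b KO against WT it was at 0.22 (limma adjusted p = 0.0501).

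None of the interferon response genes was called by limma in any comparison. Interferons are, as background, the main inducers of class I genes. The 11 measured interferon-gamma response genes had a median of 0.06 in the Il1a KO, with 8 above 0, and of -0.13 in the Il1b KO, with 10 below 0 (2 of 11 at an unadjusted p under 0.05 in each, beside 8.32% and 13% of all genes). Iigp1 and Gbp3, interferon-induced GTPases, were at -0.35 and -0.38 in the Il1b KO (limma adjusted p = 0.32 and 0.376). The 18 measured type I interferon response genes had a median of 0.00 in the Il1a KO and of -0.16 in the Il1b KO, with 16 below 0 (0 and 2 of 18 at an unadjusted p under 0.05). Oasl2, an antiviral oligoadenylate synthetase-like protein, averaged 9.39 in the Il1b KO and 9.99 in WT, a log2 fold change of -0.60 (limma adjusted p = 0.106). Between the knockouts 11 of 11 interferon-gamma genes and 15 of 18 type I genes were above 0, with medians of 0.22 and 0.17. At an unadjusted p under 0.05 by limma there were 5 of 11 and 3 of 18, beside 7.79% of all genes. Cxcl10, a chemokine for T cells, was at 0.50 there (limma adjusted p = 0.548). Genes of a list vary together on an array, so such counts are not independent observations.

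The 24 measured cytokines, receptors and transcription factors that induce class I had medians of -0.02 in the Il1a KO and -0.01 in the Il1b KO (0 and 1 at an unadjusted p under 0.05). Irf8, a regulator of myeloid cells, was at -0.18 in the Il1b KO (limma adjusted p = 0.196) and Stat2, a signal transducer of type I interferon, at -0.17 (limma adjusted p = 0.46). MHC class II genes, which present to CD4 T cells, gave no call by limma (1 of 5 at an unadjusted p under 0.05 in the Il1a KO and 3 of 5 in the Il1b KO, where 8.32% and 13% of all genes passed). Their 5 measured genes had medians of 0.29 in the Il1a KO and 0.43 in the Il1b KO. Cd74, the invariant chain, averaged 9.27 in the Il1b KO and 8.78 in WT, a log2 fold change of 0.49 that was not called (limma adjusted p = 0.186).

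**Figure D4:**
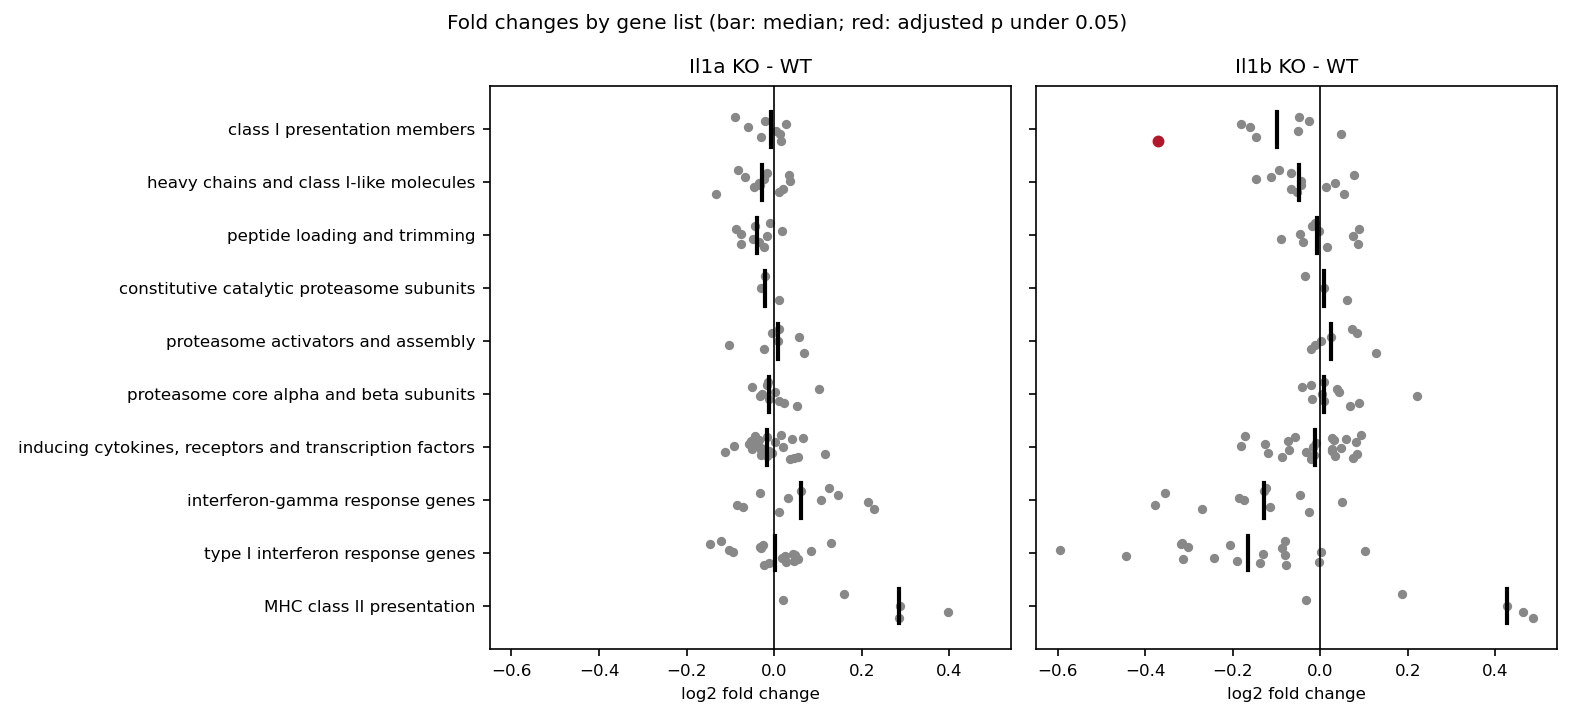
Log2 fold changes of the class I presentation genes and of 9 related gene lists in the Il1a KO minus WT and the Il1b KO minus WT, one point per gene, with the median as a bar and an adjusted p under 0.05 in red. B2m is the only red point. The type I interferon list has a median of -0.16 in the Il1b KO and 0.00 in the Il1a KO, and the class II list has medians of 0.43 in the Il1b KO and 0.29 in the Il1a KO.

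Markers of the cell types in the segment were read on the same arrays. Neuron, oligodendrocyte and astrocyte markers had mean log2 signals of 11.3 to 11.4, 11.6 to 11.9 and 10.7 to 10.8 over all arrays, and none of them was called in any comparison. The 7 oligodendrocyte markers averaged 11.75 to 11.91 in the Il1a KO, 11.67 to 11.83 in the Il1b KO and 11.59 to 11.71 in WT. All 7 were above 0 in each knockout against WT, with median log2 fold changes of 0.09 and 0.10. At an unadjusted p under 0.05 by limma there were 4 in each, beside 8.32% and 13% of all genes. Lymphocytes, which also express class I and its receptors, were read by 13 T and NK cell markers whose mean log2 signal was 6.07 to 6.17 in the Il1a KO, 5.95 to 6.16 in the Il1b KO and 5.96 to 6.29 in WT. None of those 13 was called, and the 5 B cell markers, at 6.24 to 6.30 in the Il1a KO, 6.27 to 6.40 in the Il1b KO and 6.18 to 6.45 in WT, gave no call either. Arrays give no zero level, so none of these markers can be said to be absent.

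Myeloid and vascular markers gave 4 calls. The 12 neutrophil markers had mean signals of 7.54 to 7.89 in the Il1a KO, 7.45 to 8.10 in the Il1b KO and 7.89 to 8.23 in WT, with median log2 fold changes against WT of -0.35 in the Il1a KO and -0.21 in the Il1b KO. Of them Ly6g was called in the Il1b KO, at -0.55 (limma adjusted p = 0.00869). It was at -0.45 in the Il1a KO, not called (limma adjusted p = 0.098), and at 0.10 between the knockouts (limma adjusted p = 0.856). Below 0 were 12 of the 12 markers in the Il1a KO and 10 of the 12 in the Il1b KO. At an unadjusted p under 0.05 by limma there were 6 and 4, beside 8.32% and 13% of all genes. Monocyte and macrophage markers (11 genes, 8.72 to 8.94 in the Il1a KO, 8.85 to 9.13 in the Il1b KO and 8.88 to 9.17 in WT) gave no call. Homeostatic microglia markers (9 genes, 8.59 to 8.70 in the Il1a KO, 8.51 to 8.60 in the Il1b KO and 8.47 to 8.66 in WT) gave 1, Gpr34, which was 0.31 higher in the Il1a KO than in the Il1b KO (limma adjusted p = 0.0299). Pericyte and fibroblast markers (8 genes, 9.38 to 9.44 in the Il1a KO, 9.45 to 9.54 in the Il1b KO and 9.31 to 9.53 in WT) gave 2 in the Il1b KO against WT, Abcc9 at 0.20 (limma adjusted p = 0.0187) and Rgs5 at 0.22 (limma adjusted p = 0.033). Endothelial markers (10 genes, 9.31 to 9.35 in the Il1a KO, 9.32 to 9.42 in the Il1b KO and 9.28 to 9.40 in WT) gave none. The part that these cell types play in the value of B2m was not tested.

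Members also varied between arrays of the same genotype. With group means removed, 24 of 28 pairs of measured members had a positive Pearson r over the 12 arrays, with a median of 0.38 and a range of -0.49 to 0.76. The 15 pairs among Tap1, Tap2, Tapbp, Psmb8, Psmb9 and Psmb10 had a median r of 0.58, and the 7 pairs with B2m one of 0.13. The same values over pairs of all genes were not computed, so these describe the arrays and are not shown to be particular to the members. Tapbp and Psmb8 were most alike, with r = 0.76 and Spearman's rho = 0.77 (permutation p = 0.00583 and 0.00681). After Benjamini-Hochberg adjustment over the 28 pairs none passed, and that pair had permutation p = 0.159 and 0.113. Its r was 0.80 without Il1a KO replicate 1 and Il1b KO replicate 2, the arrays farthest from the Tapbp median. Most pairs moved the other way: with the 2 arrays farthest from the median of the first gene left out, 19 of the 28 pairs had an r nearer to 0. Without Il1a KO replicates 4 and 1, the highest and lowest of their group in most members, Psmb8 had r = 0.53 with Psmb10 (0.69 over all arrays) and -0.07 with Nlrc5 (0.33 over all arrays). Without Il1a KO replicates 4 and 2, Tap2 had r = 0.42 with Psmb8 (0.64 over all arrays). The test over all pairs was added after the values had been seen.

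Nlrc5 is described as an activator of class I genes, and its relation to the other measured members was tested as a family of 7. The heavy chains H2-K1 and H2-D1 were not among these 7. Of the 7, only B2m, Tap1 and Psmb9 had an X2 core in the windows searched, and Tap2 had no window. It was nearest to Psmb9, with r = 0.66 and rho = 0.59 (permutation p = 0.0622 and 0.0824, 0.435 and 0.577 after adjustment over 7). That r was 0.65 without Il1b KO replicate 3 and WT replicate 1. With B2m it had r = -0.45 and rho = -0.41, which also did not pass (permutation p = 0.207 and 0.237), and r was -0.17 without the same arrays. The other 5 relations had r between -0.08 and 0.35. Outside the members, the genes with the highest mean r with the 8 measured members over the same arrays were Cnnm3 and Daw1 at 0.61, Parp10 and Bcat2 at 0.60 and Adam24 at 0.59, given as a description that shares array, depth of signal and normalization.

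**Figure D5:**
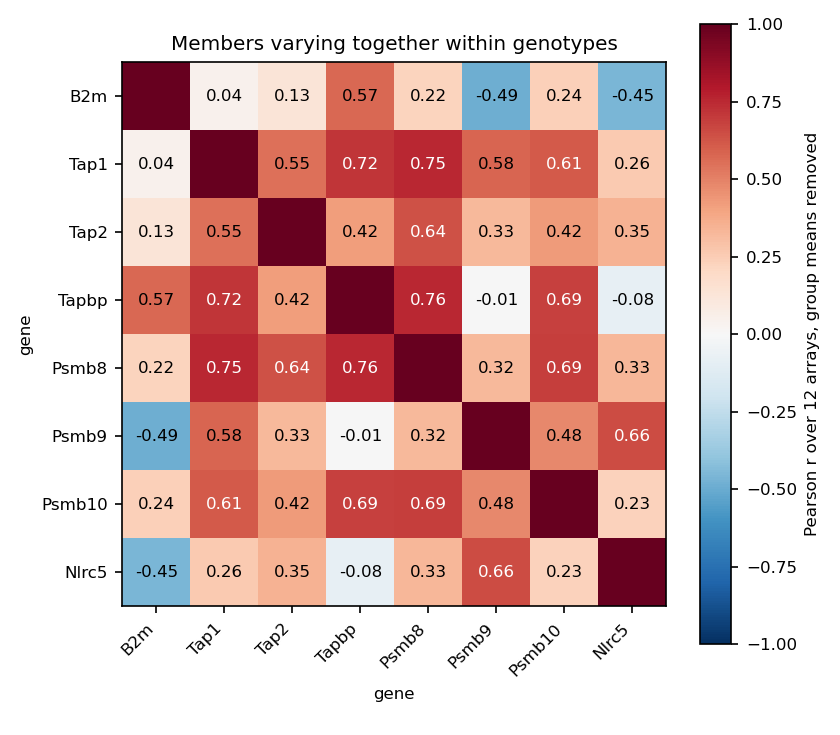
Pearson r between the 8 measured members over the 12 arrays after the mean of each genotype was removed, from -1 in blue to 1 in red. The transporter, tapasin and proteasome genes are positive with each other except Tapbp with Psmb9 at -0.01, while B2m runs from -0.49 with Psmb9 to 0.57 with Tapbp.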

How the data were processed

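The authors deposited log2 values for 35557 probe sets on 12 Affymetrix arrays, and these were used as they stand. The submitters' processing notes name the tools GCOS 1.4, RMA, limma and Partek. That the values are RMA summaries was inferred from that list. RMA gives arrays the same distribution, so an overall shift in RNA would not show, and changes of dim genes are compressed. Of the probe sets, 21789 have 1 gene symbol, and 1621 with several were used only for H2-K1 and H2-D1. Group means were fitted to all arrays with limma 3.58.1 in R 4.3.3 (eBayes, two-sided, Benjamini-Hochberg over 19938 genes, threshold 0.05), after a test on simulated data. Arrays are called biological replicates but no animals are named, so a p measures the spread between arrays, whose number sets the precision. The genes named were all members, called list genes or otherwise leading genes by p in each list (20 lists, 201 of 233 symbols measured), and genes near B2m. Members and lists were chosen with earlier results of these data known. Positions and promoters are RefSeq, GRCm38.p6.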

Additional observations from a re-analysis of the deposited data

Results flagged for a closer look

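Within groups of 4 arrays, 3 of 30 groups tested held an array that stood apart by Dixon's test, where chance gives about 1 in 20. B2m in Il1b KO replicate 2 read 11.86, with the other Il1b KO arrays at 12.11. Without it the log2 fold change of B2m in the Il1b KO against WT was -0.31 (limma adjusted p = 0.0362). B2m in WT replicate 1 read 12.25, with the other WT arrays at 12.45 to 12.48, and without it the log2 fold change was -0.42 (limma adjusted p = 0.00592). Psmb10 in WT replicate 3 read 9.66, with the other WT arrays at 9.83 to 9.84. The change of B2m from WT in the Il1a KO exceeded that in the Il1b KO by 0.38 on the log2 scale, and the test of that difference gave a limma adjusted p of 0.0174.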

How the results depend on the processing

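B2m kept its direction in all 21 alternatives, at -0.42 to -0.31 in the Il1b KO against WT (called in 17, limma adjusted p = 0.00237 to 0.0946) and 0.32 to 0.42 between the knockouts (called in 18, limma adjusted p = 0.00187 to 0.0811). The count of members called in the Il1b KO against WT was 2 with array weights, where Psmb9 joined at -0.19 (limma adjusted p = 0.0379), and 0 with only the 2 groups compared, where B2m had a limma adjusted p of 0.0946. Leaving out 1 array gave counts of 0 to 1 there and 0 to 1 between the knockouts. In the Il1a KO against WT it was 0 throughout. Calls over all genes in the Il1a KO against WT, the Il1b KO against WT and between the knockouts (34, 162 and 130) became 306, 1145 and 244 with array weights, 74, 309 and 153 with a variance trend and robust fit, 68, 303 and 120 among genes brighter than the median (which left out Tap1 and Psmb8), 66, 193 and 137 over all probe sets, and 15, 85 and 147 with only the 2 groups compared. Without WT replicate 4 they were 18, 106 and 117, the Il1a KO count was 19 without its replicate 3 or 4, and the Il1b KO count was 107 without its replicate 1. The causes were not tested. With the replicate block B2m was at -0.37 in the Il1b KO (limma adjusted p = 0.0348) and no member's call changed. Same-numbered arrays had r of -0.37 to 0.44 with 2 of 12 pairs over 0.1. No common signal by number was evident, though such values cannot show whether the arrays were handled in numbered sets. With 4 arrays a group, members other than B2m are bounded by their intervals and not shown to be equal.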
